A study of Mus musculus with 224 samples.

Results

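The 9 genes described here carry out dopamine signalling in the projection neurons of the striatum, and were chosen by name: every probeset of the array whose platform annotation gives Drd1, Drd2, Drd3, Ppp1r1b, Rgs9, Pde10a, Adcy5, Rasd2 or Bcl11b as its gene symbol. They were covered by 23 of 45037 probesets, and make up 9 of the 18193 genes with a probeset of a single symbol. All 23 probesets were measured in all 5 regions, with no filter on dim probesets. Expression was measured on Affymetrix whole-genome mouse arrays in RNA from 5 dissected regions. These were the nucleus accumbens (NAC), which is the ventral striatum, the hippocampus (HPC), the prefrontal cortex (PFC), the amygdala's central nucleus (CeA) and the bed nucleus of the stria terminalis (BNST). The animals were male C57BL/6J mice bought at 10 weeks of age, and 1 array was made for each region of a mouse.

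The study crossed 2 kinds of ethanol exposure. CIE Drinking mice breathed ethanol vapor (chronic intermittent ethanol, CIE) for 16 hours a day on 4 days, rested for 72 hours, and then had a choice of 15% ethanol or water for 2 hours a day on 5 days, in 4 such cycles. Air Drinking mice went through the same chambers with air only and drank, CIE NonDrinking mice breathed vapor and had water only, and Air NonDrinking mice had neither. Drinkers had 6 weeks of baseline drinking before the first cycle. By the authors' account, tissue was taken on the last drinking day before that day's access. Drinkers had then been without ethanol for less time than CIE NonDrinking mice. Among vapor mice, drinking and the time since the last ethanol therefore cannot be told apart. The authors also report that CIE Drinking mice drank more ethanol than Air Drinking mice after most of the vapor cycles. Among drinkers, vapor and the amount drunk therefore cannot be told apart. Vapor mice were primed with 1.6 g/kg ethanol before each session, and all 4 groups, controls included, received 1 mmol/kg pyrazole, which slows the breakdown of ethanol. Each group of a region held 8 to 12 arrays, and the regions 47 (PFC), 47 (NAC), 45 (BNST), 43 (CeA) and 42 (HPC). The samples are dissected tissue with all of its cell types, so fewer cells of a type and less RNA per cell cannot be told apart.

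Dopamine acts on striatal projection neurons through opposing receptors. Drd1 encodes the D1 receptor of the direct pathway, which couples to a stimulatory G protein and raises cyclic AMP, and Drd2 the D2 receptor of the indirect pathway, which lowers it. Drd3 encodes a D2-like receptor found mainly in the ventral striatum. Behind the receptors, Adcy5 encodes the main adenylyl cyclase of the striatum, Pde10a a phosphodiesterase that breaks down cyclic nucleotides, and Ppp1r1b the phosphoprotein DARPP-32, which inhibits protein phosphatase 1 once protein kinase A has phosphorylated it. Rgs9 encodes a regulator that speeds the shutdown of G proteins below the D2 receptor, Rasd2 the striatum-enriched small GTP-binding protein Rhes, and Bcl11b the transcription factor CTIP2, which is also used by deep-layer cortical and by hippocampal neurons.

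The sequences before the transcription starts are shown for a set of these genes that covers the receptors and the enzymes. They are the 250 bases upstream of the start in RefSeq, build GRCm38.p6, printed 5′ to 3′ on the strand of the gene, with 4 motifs in capitals wherever they occur on either strand: the cyclic AMP response element TGACGTCA, the GC box GGGCGG, the TATA box TATAAA and the E box CACGTG. Of the 9 genes, 8 had a window, and Drd1 and Pde10a had more than 1. The other Drd1 window, which is not printed, held none of the 4 motifs. The Drd1 window shown lies at chr13:54054781-54055030 on the minus strand, Drd2 at chr9:49340153-49340402 on the plus strand, Drd3 at chr16:43761971-43762220 on the plus strand, Rgs9 at chr11:109298182-109298431 on the minus strand and Adcy5 at chr16:35154614-35154863 on the plus strand. Both Pde10a starts are shown, since the probesets of this gene disagreed in the HPC, the upstream one at chr17:8801495-8801744 and the downstream one at chr17:8849735-8849984, both on the plus strand.
Drd1: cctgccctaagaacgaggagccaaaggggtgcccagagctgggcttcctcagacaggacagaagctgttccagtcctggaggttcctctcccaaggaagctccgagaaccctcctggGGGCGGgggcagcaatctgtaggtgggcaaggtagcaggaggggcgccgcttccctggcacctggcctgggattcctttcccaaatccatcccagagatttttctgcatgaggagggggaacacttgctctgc
Drd2: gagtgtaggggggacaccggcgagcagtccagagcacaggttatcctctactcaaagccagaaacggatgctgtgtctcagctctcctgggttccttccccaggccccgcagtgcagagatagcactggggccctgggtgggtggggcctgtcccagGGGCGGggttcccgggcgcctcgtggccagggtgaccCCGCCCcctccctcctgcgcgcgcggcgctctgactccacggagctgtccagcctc
Drd3: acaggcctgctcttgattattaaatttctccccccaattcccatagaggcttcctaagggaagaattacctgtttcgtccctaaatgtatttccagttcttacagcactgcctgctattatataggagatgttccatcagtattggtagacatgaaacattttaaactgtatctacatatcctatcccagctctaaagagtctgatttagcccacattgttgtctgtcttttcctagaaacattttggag
Rgs9: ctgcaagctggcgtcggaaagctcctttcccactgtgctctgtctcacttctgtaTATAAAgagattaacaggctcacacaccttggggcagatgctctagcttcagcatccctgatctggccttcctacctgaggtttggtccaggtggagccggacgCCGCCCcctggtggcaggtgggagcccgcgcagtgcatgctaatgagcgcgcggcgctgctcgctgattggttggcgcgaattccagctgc
Adcy5: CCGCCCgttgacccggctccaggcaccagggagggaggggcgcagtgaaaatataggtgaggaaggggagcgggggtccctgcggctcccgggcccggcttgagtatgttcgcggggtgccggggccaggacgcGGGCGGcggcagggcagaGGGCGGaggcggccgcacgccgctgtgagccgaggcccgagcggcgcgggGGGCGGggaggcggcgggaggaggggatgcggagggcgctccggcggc
Pde10a, upstream start: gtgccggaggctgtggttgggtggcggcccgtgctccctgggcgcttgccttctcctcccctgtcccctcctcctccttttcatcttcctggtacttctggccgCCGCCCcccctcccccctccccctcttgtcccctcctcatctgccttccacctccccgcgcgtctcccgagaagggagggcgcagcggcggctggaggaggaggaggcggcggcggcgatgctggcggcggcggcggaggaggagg
Pde10a, downstream start: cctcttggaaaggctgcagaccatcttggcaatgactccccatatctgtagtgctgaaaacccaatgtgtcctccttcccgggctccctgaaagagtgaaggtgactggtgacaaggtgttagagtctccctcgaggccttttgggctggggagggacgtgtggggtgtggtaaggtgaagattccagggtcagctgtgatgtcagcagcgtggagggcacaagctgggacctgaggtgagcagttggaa
A GC box stood in 5 of 10 windows of these genes, against 32.7% of 32851 upstream windows of the same length over all genes. The TATA box stood in 1 window, that of Rgs9, and in 12.4% of all windows. No window held the cyclic AMP response element, found in 1.55% of all windows, or the E box, found in 6.02%. In base composition the Drd3 window was the most A and T rich, with 39.2% G and C, and the Adcy5 window the richest in G and C, with 78%, where the median of all windows was 52.4%. A match of letters is a description of the window and says nothing of a factor being bound.

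In the NAC, the striatal tissue of the set, 8 of the 9 genes had their highest level. Levels are log2 intensities of the probeset with the highest mean for that gene. Regions were normalized separately, so levels are set side by side without a test, and levels of different genes are not compared. Drd1 stood at 12.5 ± 0.205 in the NAC (mean ± SD, 47 arrays), 9.52 ± 1.32 in the BNST, 9.411 ± 0.421 in the PFC, 9.06 ± 0.979 in the CeA and 8.699 ± 0.396 in the HPC. The lowest NAC array, at 11.99, lay above the highest BNST array, at 11.69. The other 4 regions overlapped each other. Drd2 stood at 9.644 ± 0.431 in the NAC, 7.591 ± 0.62 in the BNST, 6.076 ± 0.85 in the CeA, 5.527 ± 0.922 in the PFC and 5.051 ± 0.168 in the HPC, and each region overlapped the next.

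The signalling enzymes followed the same first place. Ppp1r1b stood at 11.6 ± 0.32 in the NAC, 9.762 ± 0.674 in the CeA, 8.794 ± 0.424 in the PFC, 8.766 ± 1.08 in the BNST and 8.116 ± 0.142 in the HPC. Its second place in the CeA set it apart from Drd1, Rgs9 and Adcy5, for which the BNST came second. Rgs9 was at 11.69 ± 0.297 in the NAC and within 8.392 to 8.741 in the means of the other 4 regions. Pde10a ran from 12.5 ± 0.245 in the NAC over 10.92 ± 0.551 in the BNST and 10.74 ± 0.175 in the HPC to 9.143 ± 0.557 in the PFC. Adcy5 ranged between 11.85 ± 0.26 in the NAC and 9.044 ± 0.162 in the HPC. Rasd2 stood highest in the NAC, at 11.8 ± 0.307, and lowest in the CeA, at 8.627 ± 0.773. Bcl11b was the exception, with 12.7 ± 0.0711 in the HPC and 12.63 ± 0.0952 in the NAC, which overlapped, and 10.88 ± 0.984 in the BNST.

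Drd3 stayed near the bottom of the scale everywhere. Its highest mean was 4.171 ± 0.175, in the NAC, and its lowest 3.258 ± 0.091, in the PFC, where the median probeset of the arrays stood at 6.106. Taken relative to the median of each array, Drd3 was at -2.85 in the PFC and -2.87 in the NAC, so that the order of these regions turned. On the same relative scale the PFC rather than the BNST came second for Drd1, Rgs9 and Adcy5, and rather than the HPC for Rasd2, and the first place of the other 8 genes did not change. As a check of the dissections, mean log2 levels of marker lists were compared over the CIE Drinking arrays. For 9 hippocampal neuron markers the median was 10.65 in the HPC and 6.562 to 8.781 in the other regions. For 23 striatal projection neuron markers outside the 9 genes it was 10.76 in the NAC and 7.298 to 8.468 elsewhere. In Air Drinking arrays the striatal median of the BNST was 9.312. Over all groups single arrays reached 9.972 in the BNST and 9.767 in the CeA, while the lowest NAC array stood at 10.05.

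**Figure D1:**
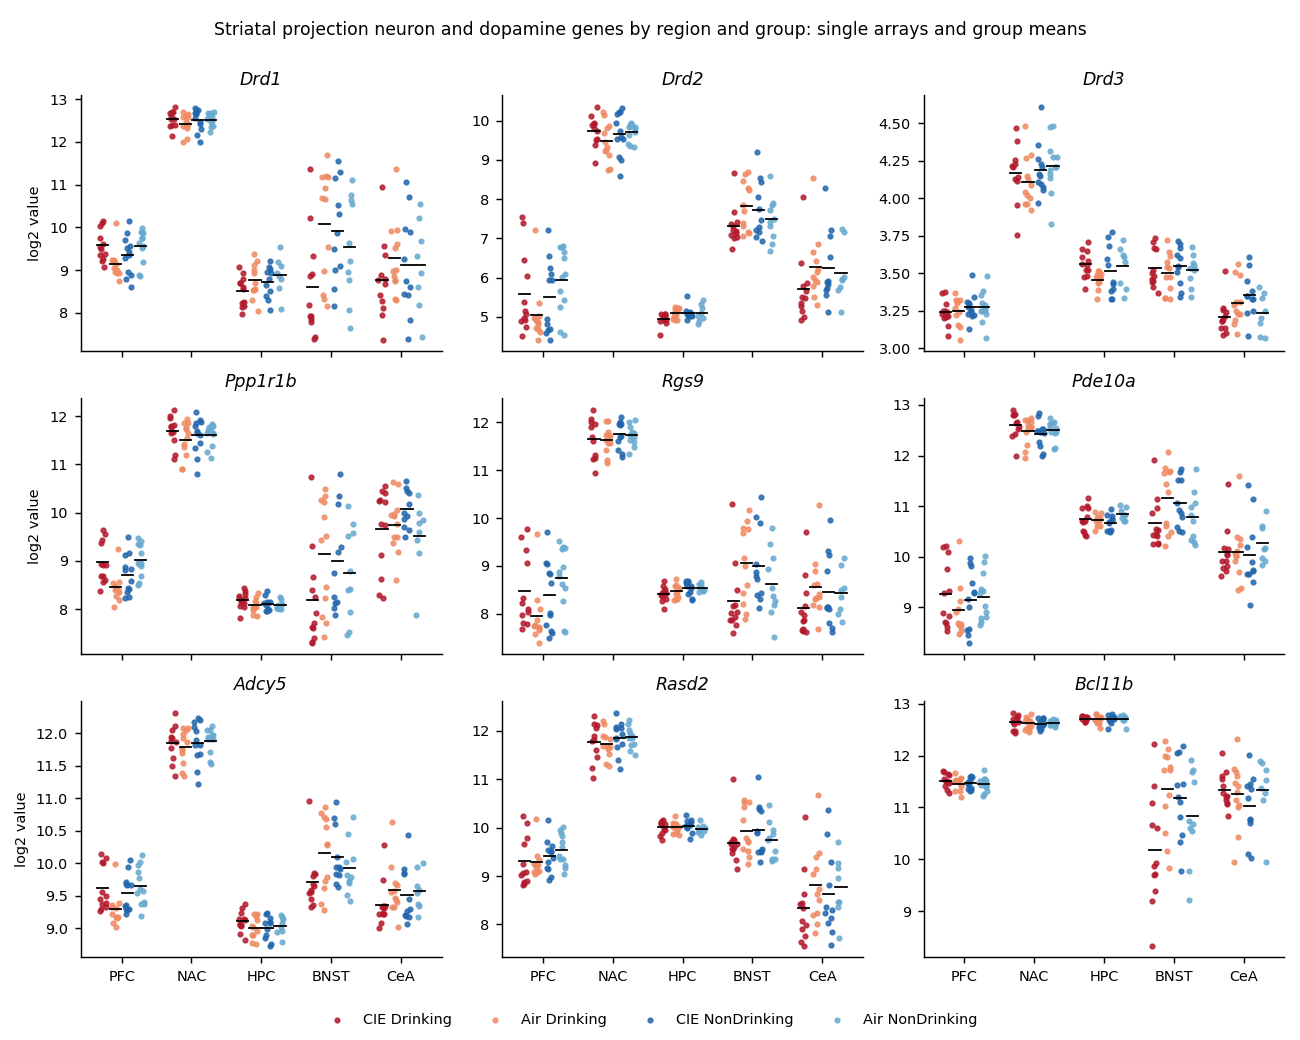
The log2 value of each of the 9 genes on every array (points), by region on the horizontal axis and by group in colour, with the group mean as a bar. The NAC lies highest for all but Bcl11b, Drd3 spans a narrow range at low values, and the arrays of the PFC, BNST and CeA spread widely within each group.

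The spread between arrays of a group was the most marked property of these genes outside the NAC and HPC. Each mouse gave 1 array per region, so differences between mice, dissections and arrays cannot be told apart in this SD. The within-group SD of Drd2 in the PFC was 0.897, at or above that of 99.97% of all probesets of the region, where the median SD was 0.136. In the PFC, 7 of the 9 genes lay above the 95th percentile of within-group SD. Drd3, with an SD of 0.0927 (15.8th percentile), and Bcl11b, with 0.127 (42.47th), were the exceptions. In the BNST, 8 of 9 lay above the 95th percentile, led by Drd1 with an SD of 1.22, Ppp1r1b with 1.04 and Bcl11b with 0.895, against a median of 0.128. In the CeA the count was 7 of 9, with Drd1 at 0.994, Drd2 at 0.844 and Rasd2 at 0.776. Adcy5, at 0.376 (91.31st percentile), stayed below the mark there together with Drd3.

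In the NAC the same genes varied less. Drd1 had an SD of 0.208 (85.44th percentile), and 4 of 9 genes passed the 95th percentile, Drd2, Ppp1r1b, Rgs9 and Rasd2. All these counts take the brightest probeset of a gene. Of all 23 probesets, 14 (PFC), 10 (NAC), 2 (HPC), 18 (BNST) and 14 (CeA) passed. In the NAC the brightest Pde10a probeset lay at the 91.52nd percentile, and the others of this gene between 96.97 and 99.1. In the BNST the brightest Adcy5 probeset lay at 98.87, and the others between 19.89 and 60.14. In the HPC only Drd1 did, with 0.386 (98.48th percentile), while Bcl11b, at 0.0737, was among the steadiest probesets of the region (8.013th percentile). The widest gap between neighbouring arrays was 33.9% of the range, for Bcl11b in the HPC, followed by 29.3% for Drd2 and 26.2% for Rgs9 in the same region, and no gene was read as separate clusters of mice.

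This spread was shared between the genes. For each array the deviation from its group mean was taken, which removes the group differences, and correlated between genes over the arrays of a region, 180 pairs in all, with permutation tests of 100000 resamples and Benjamini-Hochberg adjustment over the pairs. In the PFC (47 arrays) all 28 pairs among the 8 genes without Drd3 were correlated at an adjusted p of 0.05 or less, with r from 0.475 to 0.971 and a median of 0.852 (Spearman median 0.797). The tightest pair was Drd2 with Rgs9, with r = 0.971 and rho = 0.949 (permutation test, adjusted p = 1.91e-05, from the smallest p the resamples can give), and r = 0.963 without the 2 arrays farthest from the median. For Drd1 and Ppp1r1b, the D1 receptor and DARPP-32, r was 0.924 and rho 0.915 (permutation test, adjusted p = 1.91e-05). The direct-pathway and indirect-pathway receptors were high on the same arrays (Drd1 with Drd2, r = 0.878 and rho = 0.842, permutation test, adjusted p = 1.91e-05).

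The BNST (45 arrays) had the highest median. Its 28 pairs without Drd3 ran from 0.669 to 0.966 with a median r of 0.895, and from 0.59 to 0.959 without the 2 farthest arrays. In the NAC (47 arrays) the same pairs ran from 0.486 to 0.97, with Ppp1r1b and Adcy5 at the top. In the CeA (43 arrays) 7 genes formed 21 correlated pairs with r from 0.477 to 0.959. Ppp1r1b did not join them there: its 7 correlations lay between -0.0816 and 0.19, and none passed (smallest adjusted p = 0.307 by permutation test). In the PFC, NAC and BNST the same 7 correlations of Ppp1r1b lay at 0.615 or higher.

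Drd3 joined the others in the NAC, where 6 of its 8 correlations passed (median r of 0.573). In the PFC, BNST, CeA and HPC none of its 8 did. In the HPC (42 arrays) the shared movement was not seen, with 5 of 36 pairs past the adjusted p of 0.05 and a median r of -0.0329. Ppp1r1b and Adcy5 stayed together there (r = 0.715, rho = 0.723, permutation test, adjusted p = 1.91e-05). Drd1 ran against both, with r = -0.598 and rho = -0.671 with Ppp1r1b (permutation test, adjusted p = 0.000126; r = -0.546 without the 2 farthest arrays) and r = -0.542 and rho = -0.588 with Adcy5 (permutation test, adjusted p = 0.000394).

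**Figure D2:**
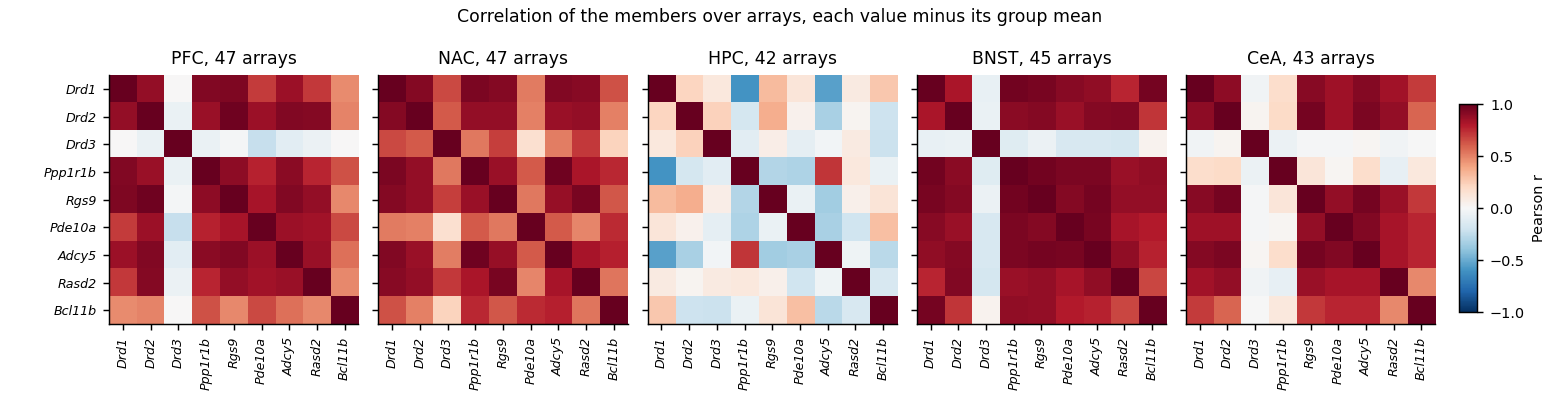
Pearson correlation of each pair of the 9 genes over the arrays of a region, after the group mean was taken from each value; red is positive and blue negative. Broad red blocks fill the PFC, NAC, BNST and CeA, with Drd3 pale outside the NAC and Ppp1r1b pale in the CeA, and the HPC shows no block.

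Mice were then followed from one region to another through the mouse number in the labels, in 90 relations (9 genes, 10 pairs of regions, 38 to 44 mice). Deviations in the BNST and the CeA of a mouse went together for 7 of the 9 genes at an adjusted p of 0.05 or less. Rgs9 was the highest, with r = 0.737 and rho = 0.702 over 39 mice (permutation test, adjusted p = 0.00045; r = 0.667 without the 2 farthest mice). Drd1 followed with r = 0.717 and rho = 0.653 (permutation test, adjusted p = 0.00045). For Drd2 (r = 0.643, rho = 0.368) and Bcl11b (r = 0.446, rho = 0.362), both over 39 mice, the rank correlation did not pass (permutation test, adjusted p = 0.125 and 0.131).

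Other region pairs gave fewer. Between the PFC and the BNST, Drd1 passed with r = 0.422 and rho = 0.449 over 42 mice (permutation test, adjusted p = 0.0369; r = 0.374 without the 2 farthest mice). Between the NAC and the BNST 3 genes went in opposite directions: Adcy5 had r = -0.509 and rho = -0.427, Drd2 r = -0.504 and rho = -0.435, and Ppp1r1b r = -0.419 and rho = -0.383, over 42 mice. Their adjusted p in the permutation test of r was 0.0061, 0.0061 and 0.0369, and the rank correlation of Ppp1r1b did not pass (adjusted p = 0.0813). Drd1 in the HPC went with Drd1 in the BNST (r = 0.614, rho = 0.562 over 38 mice, permutation test, adjusted p = 0.00105; r = 0.546 without the 2 farthest). Bcl11b in the NAC went with Bcl11b in the HPC (r = 0.486, rho = 0.48 over 40 mice, permutation test, adjusted p = 0.0138; r = 0.503 without the 2 farthest). Rasd2 in the HPC went with Rasd2 in the CeA by r (0.443 over 38 mice, permutation test, adjusted p = 0.0369; r = 0.356 without the 2 farthest) but not by rank (rho = 0.424, adjusted p = 0.0575). No relation between the PFC and the NAC, the HPC or the CeA passed.

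The genes most like the 9 were found by correlating every gene with the mean standardized deviation of the 9. In the PFC these were Slc35d3, a solute carrier (r = 0.958), Gng7, the G protein gamma subunit that partners the striatal stimulatory G protein (0.955), Penk, the enkephalin precursor of indirect-pathway neurons (0.949), Rxrg, a retinoid receptor (0.947), and Pde1b, a phosphodiesterase (0.94). In the NAC they were Lingo3, Rem2, Scube3, Ido1 and Mtcl1, with r from 0.948 to 0.97. In the BNST they were Arpp19, Lpl, Gm34996, Grasp and Gcnt2, with r from 0.974 to 0.982, and in the CeA Gpr6, Gabrd, Arpp19, Gnal and Arpp21. In the HPC no gene reached 0.8, and the top 5 were Hp1bp3, Kmt2b, Zmiz1, Sufu and Cdc42bpa, with r up to 0.655. The share of genes above 0.8 was 0.33% in the PFC, 1.3% in the NAC and 3.48% in the BNST.

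Marker lists of other cell types and regions were set against the same mean, as a description. Of 23 measured further genes of striatal projection neurons, r was above 0.5 for 18 (PFC), 22 (NAC), 20 (BNST), 21 (CeA) and 0 (HPC). Of 15 dopamine signalling partners the counts were 5, 11, 10, 9 and 1 in that order. In the BNST 2 of these partners and 1 further striatal gene were below -0.5. Other lists moved too, and their part in the spread was not tested. In the PFC, 3 of 9 hippocampal neuron genes were above 0.5, 3 of 11 cortical excitatory neuron genes were below -0.5, and all 9 oligodendrocyte genes lay between 0.35 and 0.426. In the BNST, 6 of 9 astrocyte genes, 5 of 7 endothelial genes and 4 of 9 oligodendrocyte genes were below -0.5, with 1 astrocyte gene above 0.5. There 4 hippocampal genes were above 0.5 and 1 below -0.5, and 2 cortical genes were above and 4 below. In the CeA all 4 measured cholinergic neuron genes were above 0.5, with r from 0.704 to 0.765, while the cortical list had 2 genes above 0.5 and 5 below -0.5 and the hippocampal list 2 each way. In the NAC, 4 of 10 genes of dopamine synthesis and handling and 3 of 9 astrocyte genes were below -0.5, and the cortical list had 2 genes each way. Microglia (8), interneuron (9), choroid plexus (7), thalamus and septum (5) and extended amygdala (8) genes had at most 3 genes past 0.5 in either direction in any region.

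Against this spread, the comparisons of the 4 groups gave 1 call among the 9 genes at a limma adjusted p of 0.01, that of Ppp1r1b for the interaction of vapor and drinking in the PFC. The difference between vapor and air mice in the level of the Ppp1r1b transcript was 0.52 in drinkers and -0.30 in non-drinkers on the log2 scale, an interaction of 0.82 (SE 0.21, limma adjusted p = 0.00856). For this interaction 1 of 9 genes was called, and 2.92% of all probesets. The 12 CIE Drinking arrays ran from 8.38 over a median of 8.91 to 9.63. The 11 Air Drinking arrays ran from 8.05 over 8.4 to 9.24. The 12 CIE NonDrinking arrays ran from 8.22 over 8.69 to 9.5, and the 12 Air NonDrinking arrays from 8.51 over 8.95 to 9.47. Air Drinking mice were the low group, but all 4 groups overlapped.

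The pairwise comparisons behind this interaction did not pass on their own. Ppp1r1b was higher in CIE Drinking than in Air Drinking mice by 0.52 (SE 0.15, limma adjusted p = 0.0261), and 11 of 12 CIE Drinking arrays lay above the Air Drinking mean. It was lower in Air Drinking than in Air NonDrinking mice (log2 difference -0.57, SE 0.15, limma adjusted p = 0.0171). Without 1 of the 47 PFC arrays at a time, the interaction lay between 0.76 and 0.90 and its adjusted p between 0.00286 and 0.016, and it passed in 20 of the 47 fits. In the other 6 tests of the PFC none of the 9 genes passed. The share of all probesets called there was 1.26% for vapor in non-drinkers, 1.87% for drinking in vapor mice, 0.722% for CIE Drinking against Air NonDrinking, 1.69% for CIE NonDrinking against Air Drinking, 0.915% for vapor and 1.35% for drinking.

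By their brightest probesets most of the other genes in the PFC gave values in the same directions, and none passed. The median log2 difference of the 9 genes was 0.326 in CIE Drinking against Air Drinking mice, where the median of all probesets was -0.00518. Of the 9 differences 8 were above 0, but their signs are not independent, since most of the genes moved together from array to array. For Pde10a, 1419390_at had means of 5.92 in CIE Drinking and 6.09 in Air Drinking arrays, and 1419389_at 8.371 and 8.376. Its other probesets were higher in CIE Drinking arrays. Called were 0 of 9 genes (3 at an unadjusted p under 0.05), against 1.87% of all probesets called and 20.1% at that unadjusted p. The largest were Drd2 with 0.54 (SE 0.36), Rgs9 with 0.52 (SE 0.27) and Drd1 with 0.44 (SE 0.16, limma adjusted p = 0.0868). Air Drinking against Air NonDrinking mice gave a median of -0.357, with Drd2 at -0.88 (SE 0.36) and Rgs9 at -0.79 (SE 0.27), and 0 of 9 called (5 at an unadjusted p under 0.05) where 1.4% of all probesets were called and 24.7% stood at that unadjusted p. These comparisons share the Air Drinking arrays. For Drd1 the interaction was 0.66 (SE 0.22, limma adjusted p = 0.0512), and 0.78 (SE 0.25, adjusted p = 0.0391) by its second probeset, and neither passed. By the brighter probeset the Air Drinking arrays ran from 8.75 over 9.05 to 10.11 and the CIE Drinking arrays from 9.08 over 9.51 to 10.14.

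Bcl11b, Rasd2 and Drd3 had smaller values in the PFC. The difference between CIE Drinking and Air Drinking mice was 0.06 (SE 0.05) for Bcl11b and 0.02 (SE 0.15) for Rasd2. Drd3 had a difference of -0.01 (SE 0.04).

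Among the pathway genes around the 9, Maob, a monoamine oxidase that degrades dopamine, rose in CIE Drinking against Air Drinking mice in the PFC by 0.26 (SE 0.05, limma adjusted p = 0.00091), the only one of 10 genes of dopamine synthesis and handling to pass, and it also passed for the interaction (0.32, SE 0.07, adjusted p = 0.00285). None of 23 further striatal projection neuron genes and none of 15 signalling partners passed there (3 and 2 at an unadjusted p under 0.05). Gnb5, a G protein beta subunit that binds Rgs9, fell in CIE Drinking against CIE NonDrinking mice in the PFC by 0.17 on the log2 scale (SE 0.04, limma adjusted p = 0.00281), and no other partner passed in any comparison of any region.

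Cortical and glial markers moved in the same PFC comparisons, and their part in the values of the 9 genes was not tested. Between CIE Drinking and Air Drinking mice Neurod1 (-0.74), Cux2 (-0.67) and Rorb (-0.50), 3 of 11 cortical excitatory neuron genes, passed at limma adjusted p of 0.00171, 0.00425 and 0.0081. Gfap, the astrocyte filament, rose by 0.89 (adjusted p = 0.00125), and was the only one of 9 astrocyte genes to pass. Of 5 thalamus and septum genes Rora passed (-0.23, adjusted p = 0.00963). No oligodendrocyte gene passed in this comparison, though all 9 were higher, by a median of 0.316, and Mobp passed for the interaction (0.38, adjusted p = 0.00711). For the interaction 4 of 11 cortical genes passed, Neurod1 (-1.22), Rasgrf2 (-0.68), Cux2 (-0.94) and Lamp5 (-0.59), and besides them Gfap (1.22), Rora (-0.34) and the extended amygdala neuropeptide Nts (0.61). The log2 of the summed cortical markers ran from 13.28 to 13.51 in CIE Drinking, 13.32 to 13.61 in Air Drinking, 13.26 to 13.66 in CIE NonDrinking and 13.07 to 13.49 in Air NonDrinking arrays. That of the oligodendrocyte markers ran from 15.44 to 15.74, 15.11 to 15.62, 15.18 to 15.67 and 15.21 to 15.74. No interneuron, cholinergic, microglia, endothelial, choroid plexus, hippocampal or extended amygdala gene passed in the PFC between CIE Drinking and Air Drinking mice. Between Air Drinking and Air NonDrinking mice, 3 of 11 cortical genes passed there, Cux2 (0.74), Neurod1 (0.70) and Rorb (0.59), and 1 of 8 extended amygdala genes, Nts (-0.46).

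In the BNST the same comparison gave values of the opposite sign, larger in size than in the PFC for all of the 9 genes but Drd2, with Drd3 near 0 in both. Drd1 differed by -1.48 between CIE Drinking and Air Drinking mice (SE 0.48, limma adjusted p = 0.0553), Bcl11b by -1.19 (SE 0.35, adjusted p = 0.0385), Ppp1r1b by -0.97 (SE 0.41), Rgs9 by -0.78 (SE 0.30), Drd2 by -0.50 (SE 0.24), Pde10a by -0.49 (SE 0.21) and Adcy5 by -0.45 (SE 0.18). None was called at 0.01, where 0.943% of all probesets were. At an unadjusted p under 0.05 stood 7 of the 9 genes and 23.3% of all probesets. The 7 are not independent results, since these genes moved together from array to array in the BNST. The 9 genes had a median of -0.503, and all probesets 0.00218. In the other 8 tests of the BNST none of the 9 genes was called, and of all probesets 1.22% were for CIE Drinking against Air NonDrinking, 0.401% for CIE Drinking against CIE NonDrinking, 0.0698% for vapor, 0.00225% for drinking and 0% for the remaining 4.

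For Drd1 the 12 CIE Drinking arrays of the BNST ran from 7.38 over a median of 8.06 to 11.36, and the 12 Air Drinking arrays from 8.15 over 10.67 to 11.69. The 11 CIE NonDrinking arrays ran from 8.16 over 9.86 to 11.54 and the 10 Air NonDrinking arrays from 7.65 over 9.43 to 11.1. The CIE Drinking median was the lowest, but its highest array reached into the top of every group. For Bcl11b, CIE Drinking arrays ran from 8.33 over 9.89 to 12.21 and Air Drinking arrays from 9.84 over 11.72 to 12.27.

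The BNST values depended on how the spread was estimated. With arrays weighted by their quality 6 of 9 genes passed, with Drd1 at -1.87 (limma adjusted p = 0.00184), and the share of all probesets called went from 0.943% to 11.3%. With mouse number as a block and the variance pooled over all 5 regions, 3 passed, Bcl11b, Drd1 and Ppp1r1b, where 3.81% of all probesets did. Among other lists in the BNST, 1 gene passed in this comparison, Kl, a choroid plexus gene, which fell by 0.62 (SE 0.14, limma adjusted p = 0.00761). The mean deviation of the hippocampal neuron markers had r = 0.934 with that of the 9 genes there. Single genes of the list ran from -0.587 to 0.95, with a median of 0.128. The log2 of their sum ran from 12.73 over a median of 12.9 to 13.76 in CIE Drinking and from 12.75 over 13.49 to 13.82 in Air Drinking arrays. This sum ran from 13 over 13.25 to 13.82 in CIE NonDrinking and from 12.85 over 13.08 to 13.67 in Air NonDrinking arrays. Its CIE Drinking median was thus the lowest and its Air Drinking median the highest, as for Drd1 and Bcl11b. The summed further striatal genes had medians of 14.23, 14.93, 14.49 and 14.47 in the same order of groups, and the astrocyte markers of 15.38, 15.36, 15.33 and 15.42. Of the 23 further striatal genes 16 stood at an unadjusted p under 0.05 and 0 were called, with a median difference of -0.479. Most of them moved with the 9 genes, so this count is not of independent genes either. The part of these lists in the values was not tested.

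**Figure D3:**
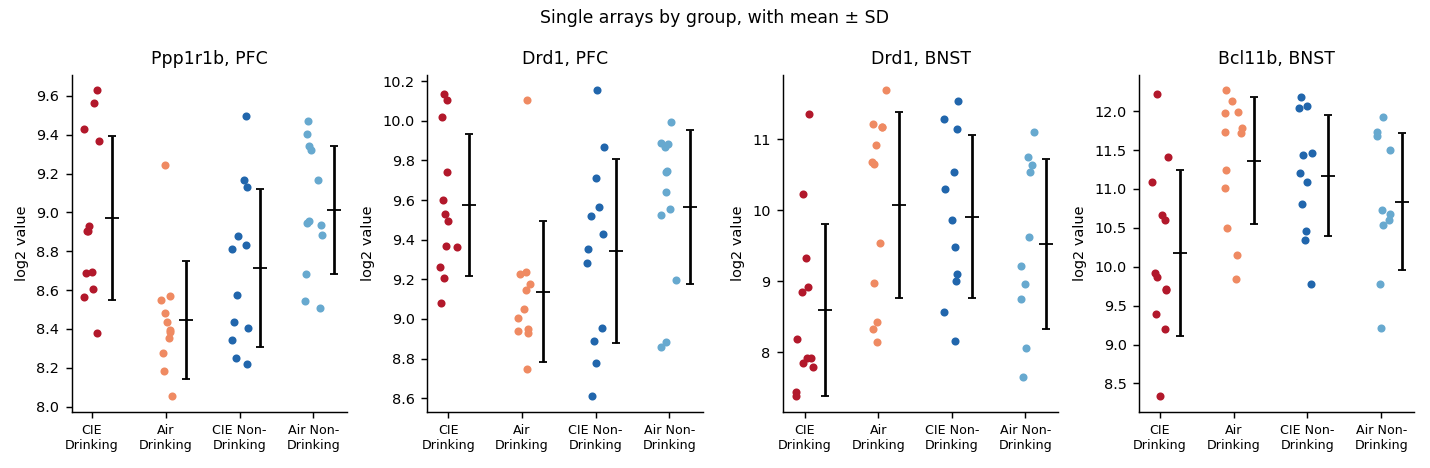
The log2 value of Ppp1r1b and Drd1 in the PFC and of Drd1 and Bcl11b in the BNST on single arrays (points), with mean ± SD of each group beside them. Air Drinking is the low group in the PFC and CIE Drinking the low group in the BNST, and the groups overlap in all 4 panels.

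The difference between CIE Drinking and Air Drinking mice was compared between the PFC and each other region. The test was on the difference of the log2 fold changes, in 1 fit of all arrays of the 5 regions. Between the PFC and the BNST it was called for 5 of 9 genes, where 2.33% of all probesets were. These genes moved together from array to array in both regions, so the count is not of independent genes. The difference was 1.92 for Drd1 (SE 0.43, limma adjusted p = 0.00177), 1.49 for Ppp1r1b (SE 0.35, adjusted p = 0.00258), 1.30 for Rgs9 (SE 0.33, adjusted p = 0.00557), 1.25 for Bcl11b (SE 0.28, adjusted p = 0.00135) and 0.77 for Adcy5 (SE 0.19, adjusted p = 0.00509). Pde10a had 0.81 (adjusted p = 0.0374) and Drd2 1.04 (adjusted p = 0.0731). For Bcl11b nearly all of the difference came from the BNST, since its PFC value was 0.06.

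That fit gives each gene 1 variance for all regions, while the within-group SD of Drd1 was 0.394 in the PFC and 1.22 in the BNST. When each region kept its own standard error, 0 of the 5 passed 0.01, with adjusted p between 0.0169 for Drd1 and 0.04 for Rgs9. Leaving out 1 of the 92 PFC and BNST arrays at a time gave 3 to 5 called genes, with Drd1, Ppp1r1b and Bcl11b called in every fit. The count fell to 3 without any 1 of 7 arrays: mice 28, 30, 32, 57 and 60 of the Air Drinking group and mouse 5 of the CIE Drinking group in the BNST, and mouse 14 of the CIE Drinking group in the PFC. The pairs of groups other than CIE Drinking against Air Drinking gave 0 calls between the PFC and the BNST, with a smallest limma adjusted p of 0.0231, where 0.966%, 0.321%, 0.595%, 0.0365% and 0.041% of all probesets were called (vapor in non-drinkers, drinking in vapor mice, both exposures against none, vapor alone against drinking alone, and drinking in air mice). Nor was any of the 9 genes called between the PFC and the CeA, the HPC or the NAC, with smallest adjusted p of 0.0364, 0.314 and 0.429. For CIE Drinking against Air Drinking mice the share of all probesets called was 4.27% with the CeA, 2.17% with the HPC and 0.781% with the NAC. For the other 5 pairs of groups, in the order above, it was 2.55%, 1.85%, 2.24%, 0.0137% and 0.0661% with the CeA, 0.825%, 0.0524%, 3.28%, 0.0661% and 0.082% with the HPC, and 0.686%, 0.107%, 0.182%, 0.112% and 0.0228% with the NAC.

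**Figure D4:**
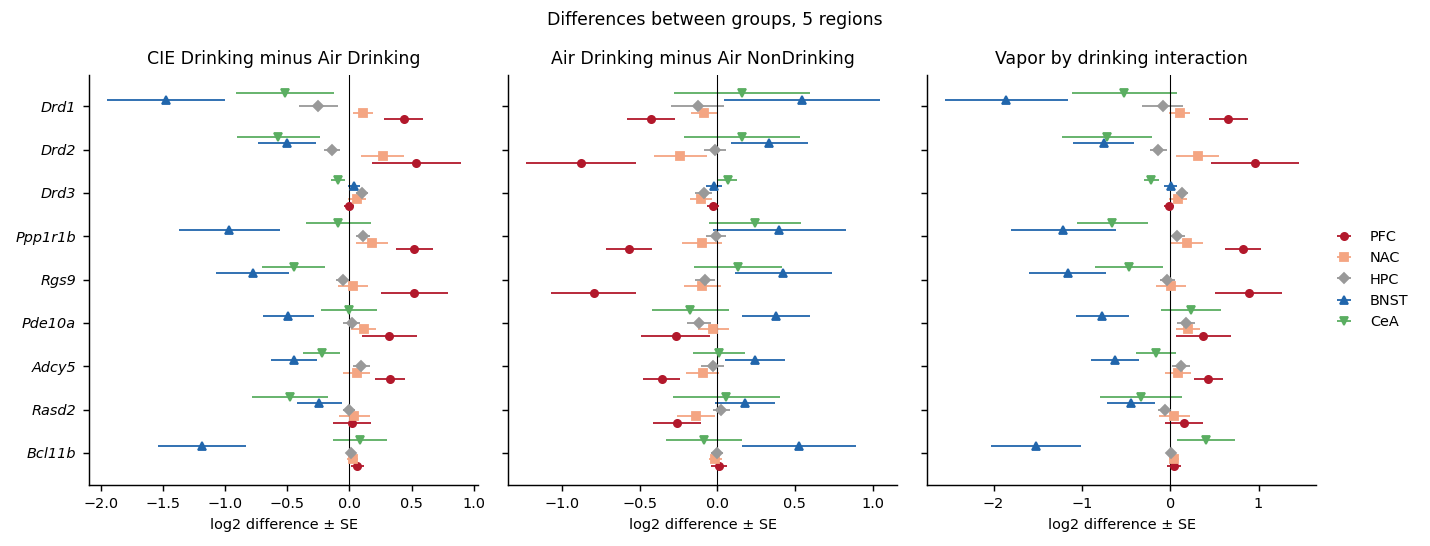
Log2 differences with their standard errors for the 9 genes in the 5 regions, for CIE Drinking against Air Drinking mice (left), Air Drinking against Air NonDrinking mice (middle) and the vapor by drinking interaction (right). The PFC lies to the right and the BNST to the left of 0 in the left and right panels for most genes, and the NAC and HPC stay close to 0.

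In the NAC, where all of the genes but Bcl11b had their highest deposited level, no gene passed in any of the 6 comparisons. None passed for vapor, drinking or interaction either. The share of all probesets called there was 2.71% for CIE Drinking against Air NonDrinking, 0.777% for vapor, 0.282% for CIE Drinking against Air Drinking, 0.0444% for drinking, 0.02% for CIE Drinking against CIE NonDrinking, 0.00222% for CIE NonDrinking against Air Drinking and 0% for the other 3. By its brightest probeset no gene reached an unadjusted p of 0.05 in any of them. Of the 23 probesets, 1 did in CIE Drinking against each other group and for vapor. In these tests 11.1% to 20.4% of all probesets did. By the brightest probesets, the difference between CIE Drinking and Air Drinking mice lay between 0.03 and 0.27. Drd2 was the highest, and all 9 were above 0. For Pde10a, 1419390_at had means of 8.299 in CIE Drinking and 7.736 in Air Drinking arrays, and 1458499_at 9.989 and 10.05. For Drd1 the 11 CIE Drinking arrays ran from 12.15 over 12.54 to 12.82 and the 12 Air Drinking arrays from 12 over 12.44 to 12.71.

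The CeA gave 0 calls as well, where 1.86% of all probesets were called for CIE Drinking against Air NonDrinking, 1.64% for CIE Drinking against CIE NonDrinking, 1.14% for drinking, 0.177% for CIE Drinking against Air Drinking and 0% for the other 5 tests. CIE Drinking against Air Drinking mice had a median of -0.224 over the 9 genes, from -0.57 for Drd2 to 0.08 for Bcl11b, and the smallest adjusted p was 0.4. By the brightest probesets Drd3 alone reached an unadjusted p under 0.05 in the CeA. It did for CIE Drinking against CIE NonDrinking mice (-0.15, SE 0.06, limma adjusted p = 0.155) and for the interaction (-0.21, SE 0.08, adjusted p = 0.314). Its means of 3.209 and 3.356 in those 2 groups lay near the bottom of the scale. Of the 23 probesets, 2 reached that p in CIE Drinking against CIE NonDrinking mice. In CIE Drinking and in Air Drinking against Air NonDrinking mice, and for drinking, 1 did. In these tests 5.73% to 16.5% of all probesets did.

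In the HPC no gene passed by its brightest probeset, but a pair of Pde10a probesets did. Probeset 1419389_at rose in CIE Drinking against Air Drinking mice by 0.33 (SE 0.06, limma adjusted p = 0.0022), and 1419390_at by 0.37 (SE 0.07, adjusted p = 0.0022). These were 2 of 23 probesets, where 1.23% of all probesets were called. Against Air NonDrinking mice the rise was 0.42 (SE 0.07, adjusted p = 0.000121) and 0.37 (SE 0.08, adjusted p = 0.00139), again 2 of 23 where 3.63% were called. The main effect of vapor was 0.24 (SE 0.05, adjusted p = 0.00236) and 0.25 (SE 0.05, adjusted p = 0.00454), where 1.2% were called. Over the other tests the share called in the HPC was 0.0832% for CIE Drinking against CIE NonDrinking, 0.0292% for drinking and 0% for the remaining 4, and no probeset of the 9 genes passed there.

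The 12 CIE Drinking arrays of 1419389_at in the HPC ran from 8.201 over a median of 8.458 to 8.597, and the 8 Air NonDrinking arrays from 7.954 over 8.035 to 8.102. These groups did not overlap. The 11 Air Drinking arrays ran from 7.756 over 8.252 to 8.396, with 4 arrays below every array of the other groups, and the 11 CIE NonDrinking arrays from 7.98 over 8.194 to 8.34. Probeset 1419390_at also had its highest median in CIE Drinking arrays, which ran from 6.063 over 6.286 to 6.506. The Air NonDrinking arrays ran from 5.795 over 5.881 to 6.021 and the CIE NonDrinking arrays from 5.798 over 6.007 to 6.277. The Air Drinking arrays ran from 5.556 over 5.864 to 6.281, the lowest median for this probeset. Again 4 Air Drinking arrays lay below all arrays of the other groups.

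The other 3 Pde10a probesets did not follow. The brightest, 1439618_at, differed by 0.02 between CIE Drinking and Air Drinking mice (limma adjusted p = 0.937), 1432490_a_at by -0.19 (SE 0.08, adjusted p = 0.158) and 1458499_at by -0.03 (SE 0.05). Over the 42 HPC arrays the deviations of 1419389_at and 1419390_at had a correlation of 0.753, as a description, and their correlations with the other 3 lay between -0.0835 and 0.0927. In the PFC 1419389_at had correlations of 0.905 with 1432490_a_at and 0.854 with 1439618_at. Pde10a has the separate starts printed above, but which transcripts each probeset reads was not examined here.

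**Figure D5:**
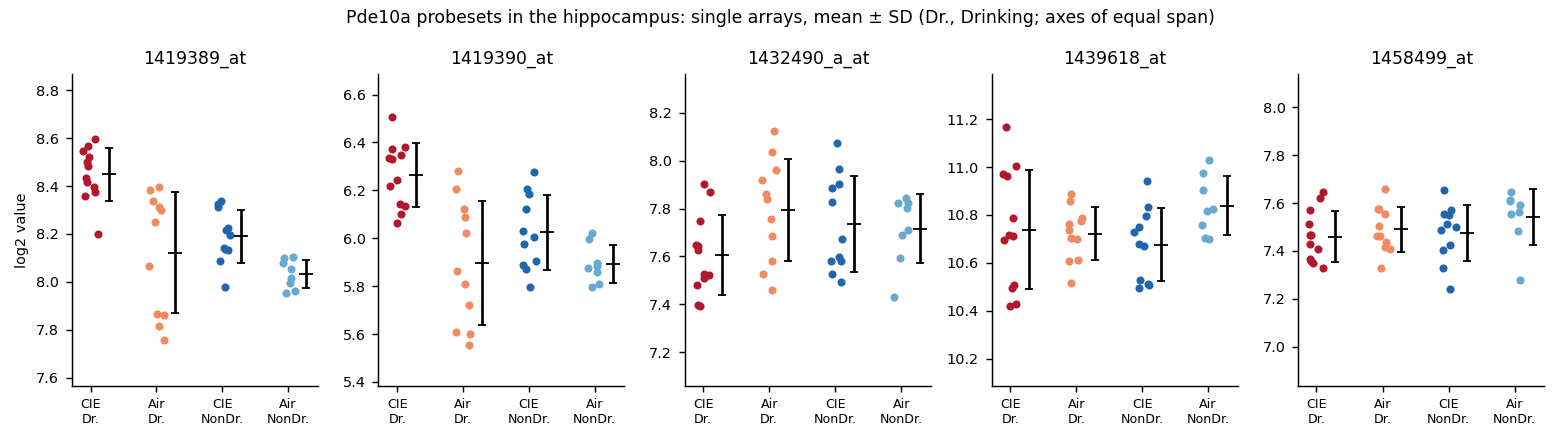
The log2 value of the 5 Pde10a probesets in the HPC on single arrays (points), by group, with mean ± SD beside them and axes of equal span. The CIE Drinking arrays of 1419389_at and 1419390_at lie above all Air NonDrinking arrays, and the groups of the other 3 probesets overlap.

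Leaving out 1 HPC array at a time kept both probesets called in CIE Drinking against Air Drinking and Air NonDrinking mice in all 42 fits, with an adjusted p of at most 0.00802. A fit of the CIE Drinking and Air Drinking arrays alone missed the threshold for Pde10a (limma adjusted p = 0.0294 and 0.0253). So did a fit of all regions with mouse number as a block, which gives a probeset 1 variance for all regions, with adjusted p between 0.285 and 0.45 over both comparisons. Among other HPC values, Bcl11b probeset 1438784_at was higher in CIE Drinking than in Air Drinking mice by 0.30 (SE 0.08, limma adjusted p = 0.0192) and did not pass. Microglia markers moved in the HPC: Cx3cr1 rose by 0.30 in CIE Drinking against Air Drinking mice (limma adjusted p = 0.00746), 1 of 8 microglia genes, and against Air NonDrinking mice Cx3cr1 rose by 0.34 and Itgam by 0.48, 2 of 8. Their part in the Pde10a values was not tested.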

How the data were processed

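The authors made the deposited log2 values from the array scans with RMA background correction and quantile normalization, separately for each region, adjusted them for hybridization batch with ComBat and removed arrays of low quality. Differences between regions in the level of a gene are therefore given without a test, and since the labels do not name the hybridization batches, no within-batch values were computed. For arrays, the number of arrays limits the precision. Samples were grouped by the labels into 4 groups per region, and each array of a group came from another mouse. No column was without a sample.

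The members and lists were chosen with earlier results of these data known. All 9 genes are named, as are up to 4 called genes of each other list and the 5 genes most like the members in each region. A gene was read by its probeset with the highest mean. Each region was fitted in limma 3.58.1 (R 4.3.3) with a mean for each of the 4 groups, and p-values were adjusted over all probesets by Benjamini-Hochberg, with a call at 0.01. The scripts were tested on simulated data. Correlations were computed in Python 3.11.15 with scipy 1.17.1 and numpy 2.4.6. Alternatives were quantile normalization of the arrays once more, array weights, trend and robust variances, dim probesets left out, a gene's probesets averaged, only the 2 groups compared, mouse number as a replicate block, an adjusted p of 0.05, and arrays left out in turn. Separate standard errors or weights for each region, the leaving out of HPC and BNST arrays and the comparison of a mouse's regions were added after seeing the data.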

Additional observations from a re-analysis of the deposited data

Results flagged for a closer look

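A single distant array was looked for only in groups of 4 to 10 arrays. Only the Air NonDrinking groups of the HPC, CeA and BNST were of that size. Over the 9 genes this gave 27 sets of values, and 2 had a distant array, both for Bcl11b. Chance gives about 1 such set in 20. In the CeA the lowest array stood at 9.95 with the nearest at 11.1, and the gap was 0.611 of the range of the group. In the HPC the lowest array stood at 12.5 with the nearest at 12.7, and the gap was 0.652 of the range.

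The difference between CIE Drinking and Air Drinking mice was not the same in the PFC and the BNST for 5 genes, by the limma test of the difference itself. The log2 difference was above 0 in the PFC and below 0 in the BNST for each of them, and the PFC value minus the BNST value was 1.92 for Drd1, 1.49 for Ppp1r1b, 1.30 for Rgs9, 1.25 for Bcl11b and 0.77 for Adcy5. None of the 5 passed when each region kept its own standard error. In both regions the 5 genes moved together from array to array and are not independent results.

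The log2 difference between vapor and air mice for Ppp1r1b in the PFC was 0.52 in drinkers and -0.30 in non-drinkers, and these differed by 0.82 in the interaction test in limma. The call was lost in 27 of 47 fits that left out 1 array, with array weights (adjusted p = 0.012) and with trend and robust variances (0.0107).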

How the results depend on the processing

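No called value changed sign under an alternative, while some values near 0 that were not called did with array weights, renormalization, the mouse block or 1 array left out. Of the counts of called genes 440 stayed as they were and 10 moved, leave-outs aside. The interaction in the PFC went from 1 called gene to 0 with trend and robust variances (Ppp1r1b, limma adjusted p = 0.0107) and with array weights (0.012). With those weights the share of all probesets called for it went from 2.92% to 5.79%. CIE Drinking against Air Drinking in the PFC went from 0 to 1 with array weights, where the share went from 1.87% to 7.08%. It also went to 1 at an adjusted p of 0.05. Air Drinking against Air NonDrinking in the PFC went from 0 to 1 at 0.05. In the BNST, CIE Drinking against Air Drinking went from 0 to 6 with array weights (11.3% of all probesets called). At 0.05 it went to 1. With mouse number as a replicate block and all regions in the fit it went to 3 (3.81% called). CIE Drinking against CIE NonDrinking went from 0 to 2 with that block, where the share called went from 0.401% to 2.2%. Shares at an adjusted p of 0.05 are not given here. The 5 genes whose response differed between the PFC and the BNST became 0 with the standard errors of each region's own fit, and stayed 5 with the mouse block alone. The causes were not tested. Leaving out 1 array at a time gave 0 to 1 called for the PFC interaction (0 in 27 of 47 fits), 0 to 1 for CIE Drinking and for Air NonDrinking against Air Drinking in the PFC (1 only without Air Drinking mouse 57), 0 in every HPC test by the brightest probesets, and 3 to 5 for the PFC and BNST difference. Arrays of the NAC and CeA, and those of the BNST within its own comparisons, were not left out.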
